A study of Mus musculus with 45 samples.

Results

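The 10 genes followed here mark the cells between and around the skeletal elements of the limb: the tendon genes Scx, Mkx, Tnmd, Thbs4, Fmod and Dcn and the joint region genes Osr1, Osr2, Erg and Prg4. They were taken by gene symbol, and all 10 were found among the 34994 genes of the joined count tables. The cells were forelimb buds of CD1 mouse embryos of gestation day 13, kept as organ cultures for 3, 24 or 48 h in the vehicle DMSO, the control, or in 10 or 50 µM bisphenol S (BPS). BPS has replaced bisphenol A in many plastics and papers. This gave 45 libraries, 5 in each of 9 groups. In the group of 50 µM at 48 h the strain is labelled CD2, CD3, CD4, CD5 and CD6, 1 label a library, and all 5 were analysed as CD1. The labels name no genetic alteration. Forelimbs were pooled for culture, male and female limbs shared the bottles, and every culture was a piece of whole tissue, so the levels are averages over all its cell types. Nothing in the labels ties the libraries of a group to separate bottles or litters, so p-values measure only how these libraries spread, and that spread may be technical. In such bulk RNA, fewer cells of a type and less RNA per cell cannot be told apart.

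Tendon precursors in the limb bud are recognised by Scx, the gene of the basic helix-loop-helix factor scleraxis, which binds DNA at short motifs called E-boxes. As these cells mature they express Tnmd, a membrane protein of tendon cells, and build a matrix of collagen fibrils whose assembly is controlled by small leucine-rich proteoglycans such as fibromodulin and decorin. Joints form where cartilage is interrupted by an interzone, a band of flattened cells that express Erg and the zinc finger factors Osr1 and Osr2, which are also known from the loose connective tissue of the limb. The surface cells of the later joint secrete lubricin, the product of Prg4.

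Library totals ran from 15.2 to 23.1 M gene reads (median 18.2 M). Levels are in CPM, that is, read counts scaled to library size, and are written as mean ± SD of a group (n = 5). A count of 3 reads equals 0.13 to 0.197 CPM. All 10 genes passed the filter on low counts in each of the 12 comparisons of 2 groups, and the lowest value of any of them in any library was 2.45 CPM, for Prg4. The limb label was checked against markers. Prrx1, a marker of limb mesenchyme, lay between 379 and 592 CPM in all libraries, and the forelimb factor Tbx5 between 192 and 324 CPM, against 20.9 to 31.5 CPM for the hindlimb factor Tbx4 and 2.33 to 7.38 CPM for Pitx1. Replicate 3 of the control at 48 h had the lowest summed cartilage markers of its group, at 13017 CPM against 16964 to 19912 CPM in the other 4 libraries, and the lowest summed muscle markers, at 2977 against 3821 to 4501 CPM. Scx and Tnmd, whose calls change without this library, are given with and without it.

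**Figure D1:**
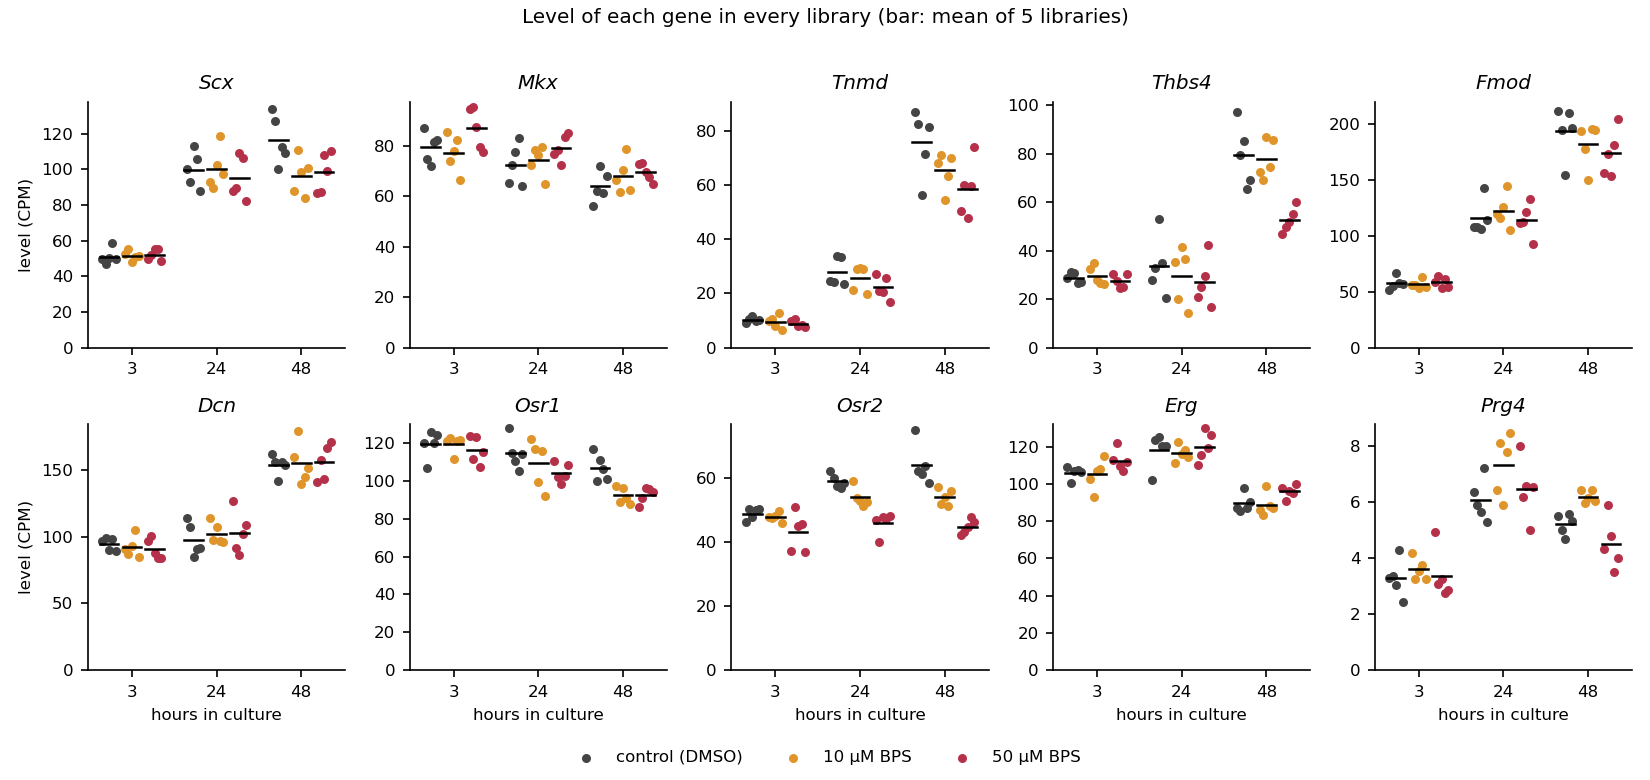
Level in CPM (y axis, from 0) of each gene in every library at 3, 24 and 48 h of culture (x axis), with control in grey, 10 µM BPS in orange and 50 µM BPS in red and a bar at the mean of 5 libraries. Tnmd and Fmod climb from each time to the next at every dose, and Osr2 lies lowest at 50 µM at 24 and 48 h.

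Levels of different genes can be compared only per gene length, as CPM per kb. In controls at 3 h the highest were Osr1 at 57.7 ± 3.66 CPM per kb, Erg at 30.6 ± 0.922 and Scx at 25.4 ± 2.29. Mkx at 20.3 ± 1.58, Fmod at 17.5 ± 1.68 and Dcn at 16.2 ± 0.802 CPM per kb followed, then Osr2 at 13.5 ± 0.511, Thbs4 at 8.77 ± 0.603 and Tnmd at 7.55 ± 0.712. Mkx and Fmod, Fmod and Dcn, and Thbs4 and Tnmd were neighbours that did not differ by more than the sum of their SDs. Prg4 stood last at 0.768 ± 0.156 CPM per kb. At 48 h the order was different. Fmod at 58.6 ± 7.04, Scx at 58.0 ± 6.82, Tnmd at 56.1 ± 9.05 and Osr1 at 51.8 ± 3.43 CPM per kb lay together within their SDs at the top. Dcn at 26.4 ± 1.28, Erg at 25.8 ± 1.41 and Thbs4 at 24.1 ± 3.92 formed a second set within their SDs. Osr2 at 17.7 ± 1.75 and Mkx at 16.3 ± 1.55 CPM per kb, again within their SDs, came next, and Prg4 was again lowest at 1.22 ± 0.0888.

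**Figure D2:**
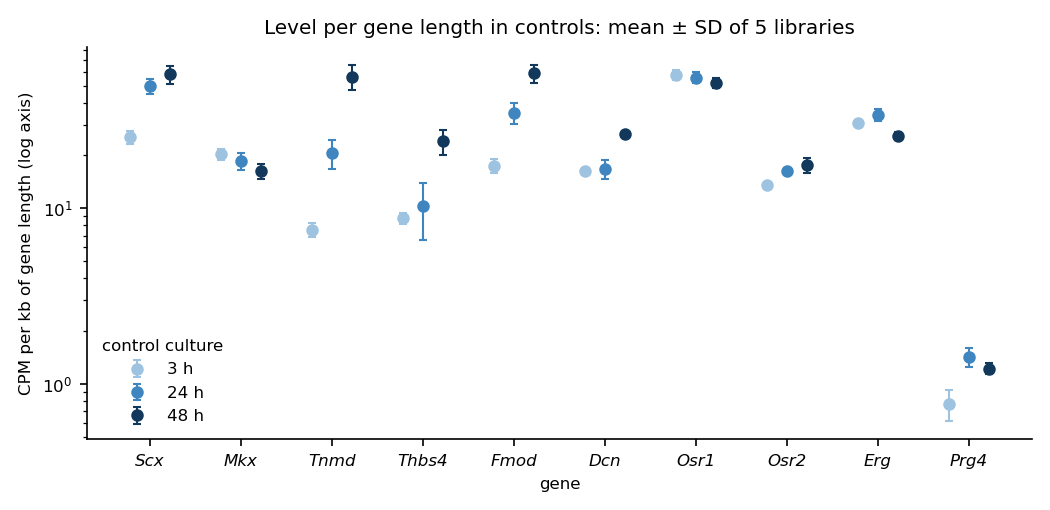
Mean ± SD of 5 control libraries at 3, 24 and 48 h (light to dark blue) in CPM per kb of gene length (y axis, log scale) for each gene (x axis). Tnmd moves from the second lowest place at 3 h into the top set at 48 h, while Prg4 stays lowest at all 3 times.

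The first comparison was of culture time in controls, the background on which each BPS group stands. Between 3 and 48 h Tnmd, Fmod, Thbs4, Scx and Dcn rose, Mkx fell, and in the joint region set Osr2 and Prg4 rose while Erg and Osr1 fell. In numbers, all 10 genes passed at 48 h against 3 h by the quasi-likelihood test of edgeR at an adjusted p below 0.05, 7 higher and 3 lower, where 49.3% of all genes tested passed (4126 higher and 4178 lower). From 3 to 24 h 5 of the 10 passed, 5 higher and 0 lower, against 40.2% of all genes (3315 higher and 3327 lower). Unadjusted p was below 0.05 for 7 of the 10 and for 7915 of the 16536 genes tested. DESeq2 also called 0 of the 10 lower. From 24 to 48 h 5 passed, 4 higher and 1 lower, against 16.0% of all genes (1576 higher and 1094 lower). The median log2 change of the 10 genes was 0.23, 0.17 and 0.67 in the 3 comparisons (24 versus 3 h, 48 versus 24 h, 48 versus 3 h), and that of all genes tested was -0.01 in each. These comparisons share libraries, so their values stand side by side and do not support each other.

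**Figure D3:**
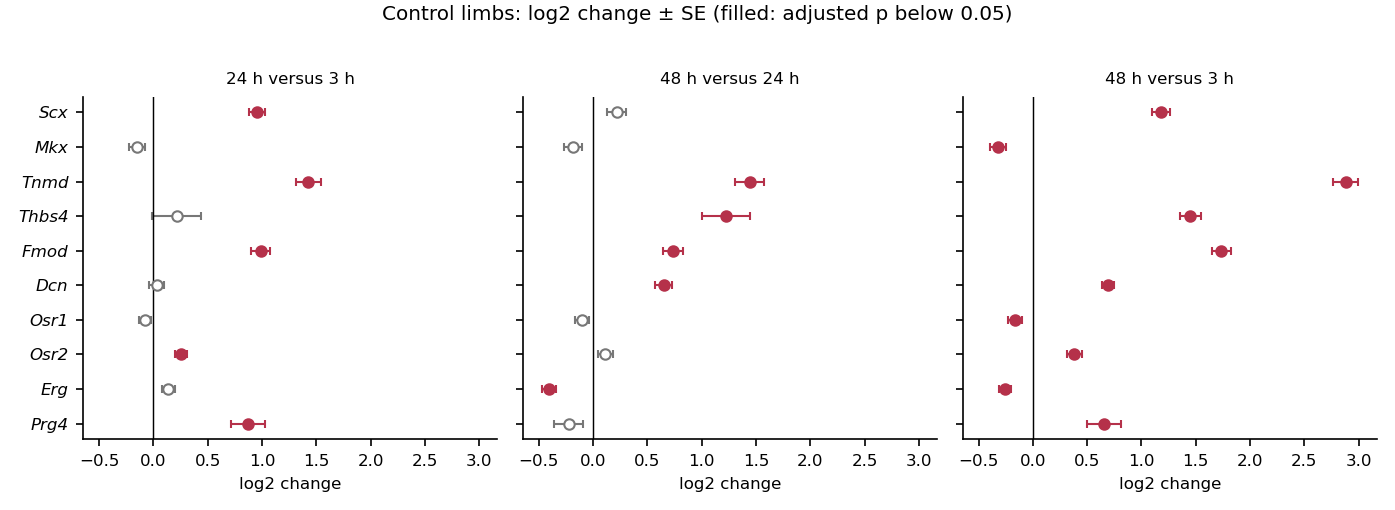
Log2 change ± SE (x axis) of each gene (y axis) between control culture times, with filled red points at an adjusted p below 0.05 in edgeR. Tnmd has the farthest point in each panel, and Mkx, Osr1 and Erg are the genes left of 0 at 48 versus 3 h.

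Among the transcription factors of the tendon lineage, Scx (ENSMUSG00000034161, mm10 chromosome 15, 76457452 to 76459458, plus strand) stood at 49.6, 46.6, 50.3, 58.8 and 49.6 CPM in the 5 control libraries at 3 h. At 24 h the values were 100.005, 92.8, 113, 106 and 87.6 CPM, all above every 3 h library, a log2 change of 0.95 ± 0.071 (SE, adjusted p = 1.37e-09). At 48 h they were 134, 127, 99.98, 113 and 109 CPM and overlapped those at 24 h. The step from 24 to 48 h did not pass (0.22 ± 0.085, adjusted p = 0.0992), but passed without replicate 3 of the 48 h control (0.27, adjusted p = 0.0338) and with no filter on low counts (0.24, adjusted p = 0.0391). Scx lies inside Bop1, a ribosome assembly gene on the other strand, and whether the counting kept strand is not stated, so its reads may include those of Bop1 and the level of Scx is uncertain. Bop1 stood at 52.3 ± 3.70, 61.7 ± 5.74 and 60.9 ± 6.65 CPM in controls at 3, 24 and 48 h.

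Mkx (ENSMUSG00000061013), the gene of the homeobox factor mohawk that is needed for tendon collagen, took the other direction. Its level was 79.7 ± 6.18 CPM at 3 h, 72.6 ± 8.12 at 24 h and 64.0 ± 6.10 at 48 h. The 5 libraries at 48 h, between 56.3 and 72.0 CPM, all lay below those at 3 h, with the highest of them just under the lowest at 3 h (72.0 CPM to 3 digits), and the log2 change was -0.32 ± 0.075 (adjusted p = 0.0017). Neither step alone passed, with -0.15 ± 0.071 from 3 to 24 h (adjusted p = 0.0989) and -0.19 ± 0.085 from 24 to 48 h (adjusted p = 0.157). Without replicate 4 of the 24 h control the first step passed (-0.20, adjusted p = 0.0302).

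Tnmd (ENSMUSG00000031250, mm10 chromosome X, 133850980 to 133865577, plus strand) changed most of the 10. Control libraries held 9.15, 10.5, 11.7, 9.68 and 10.0 CPM at 3 h, then 24.5, 24.2, 33.8, 33.3 and 23.4 CPM at 24 h. At 48 h they held 86.9, 82.8, 56.5, 71.4 and 81.7 CPM. The 3 times did not overlap in any library, and the lowest value at 48 h was that of replicate 3. Tnmd rose by 1.43 ± 0.115 on the log2 scale to 24 h (adjusted p = 4.07e-09) and by a further 1.44 ± 0.131 to 48 h (adjusted p = 3.41e-06), which is 7.37-fold over the whole time.

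The matrix genes rose at different times. Fmod (ENSMUSG00000041559, mm10 chromosome 1, 134037254 to 134048277, plus strand), which encodes fibromodulin, held 52.0, 55.3, 66.9, 58.3 and 56.6 CPM at 3 h and 108, 108, 106, 143 and 114 CPM at 24 h. At 48 h it held 212, 195, 155, 210.3 and 196 CPM. All 3 times were apart, and both steps passed, with log2 changes of 0.99 ± 0.085 (adjusted p = 6.34e-08) and 0.74 ± 0.096 (adjusted p = 7.31e-05). Dcn (ENSMUSG00000019929, mm10 chromosome 10, 97479609 to 97518143, plus strand), the gene of decorin, stood at 94.7 ± 4.68 CPM at 3 h and 97.9 ± 12.4 at 24 h, with overlapping libraries (log2 change 0.03 ± 0.072, adjusted p = 0.774). From 24 to 48 h it rose to 154 ± 7.47 CPM, with no overlap, by 0.65 ± 0.079 (adjusted p = 3.54e-05).

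Thbs4 (ENSMUSG00000021702, mm10 chromosome 13, 92751590 to 92794818, minus strand) encodes thrombospondin 4, a matrix protein of tendon and of the junction between muscle and tendon. Control libraries lay between 26.6 and 31.1 CPM at 3 h and spread to 28.0, 32.9, 53.2, 34.8 and 20.5 CPM at 24 h. That step did not pass (0.21 ± 0.223, adjusted p = 0.49), and it was -0.01 without replicate 3 of the 24 h control. At 48 h the 5 libraries held 97.4, 79.4, 85.4, 65.3 and 69.1 CPM, all above every 24 h library, and Thbs4 rose by 1.22 ± 0.221 on the log2 scale (adjusted p = 0.00375).

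Tnmd, Thbs4 and Fmod were the genes of the set with the largest rises from 3 to 48 h, at 2.88 ± 0.114, 1.45 ± 0.096 and 1.73 ± 0.089 on the log2 scale, and their promoters are shown so that the E-box letters CANNTG, the core that basic helix-loop-helix factors such as scleraxis read, can be looked at in these genes. Each is the 250 bases before the start that RefSeq gives on GRCm38.p6, the assembly also called mm10, written 5′ to 3′ on the strand of the gene, with any CANNTG match in capitals. CANNTG is its own reverse complement, so a match on 1 strand is a match on both.
Tnmd, chrX:133850758-133851007, plus strand: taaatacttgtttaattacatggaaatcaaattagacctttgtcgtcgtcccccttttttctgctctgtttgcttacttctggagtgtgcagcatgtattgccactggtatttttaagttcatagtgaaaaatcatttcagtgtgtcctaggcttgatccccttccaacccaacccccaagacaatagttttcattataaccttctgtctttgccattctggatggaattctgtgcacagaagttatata
Thbs4, chr13:92794819-92795068, minus strand: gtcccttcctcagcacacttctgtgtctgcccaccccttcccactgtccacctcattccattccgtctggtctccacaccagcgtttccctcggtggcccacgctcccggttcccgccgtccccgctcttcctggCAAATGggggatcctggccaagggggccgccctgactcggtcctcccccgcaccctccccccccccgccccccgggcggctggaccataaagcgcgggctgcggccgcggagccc
Fmod, chr1:134037004-134037253, plus strand: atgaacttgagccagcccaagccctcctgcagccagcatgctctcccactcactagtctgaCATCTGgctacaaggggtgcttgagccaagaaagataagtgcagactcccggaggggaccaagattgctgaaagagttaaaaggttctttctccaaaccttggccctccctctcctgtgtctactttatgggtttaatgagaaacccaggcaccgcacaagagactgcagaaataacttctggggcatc
The window of Thbs4 holds 1 match, CAAATG, which begins 115 bases before the start, and that of Fmod holds 1, CATCTG, which begins 189 bases before it. That of Tnmd holds 0, which says only that these letters are not in this window. Its last bases lie inside the gene as the deposited tables bound it. Of 32851 RefSeq promoter windows 66.2% hold at least 1 match, with a median of 1, so holding one is the common case. A promoter was found for 4 of the 10 genes. The one not shown is Erg, which was lower at 48 h than at 3 h in controls. Its promoter windows 1, 2 and 3 hold 0, 0 and 2 matches. The 2 matches, CACCTG and CAATTG, begin 217 and 189 bases before the start of that window's promoter.

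In the joint region set, Osr2 (ENSMUSG00000022330, mm10 chromosome 15, 35296098 to 35303305, plus strand) rose early. Its control libraries held 46.1, 50.3, 47.8, 49.9 and 50.2 CPM at 3 h and 62.3, 59.9, 57.4, 57.0 and 58.5 CPM at 24 h, with no overlap (log2 change 0.26 ± 0.054, adjusted p = 0.000686). At 48 h they held 74.9, 62.0, 61.2, 63.6 and 58.5 CPM, which overlapped those at 24 h (0.11 ± 0.070, adjusted p = 0.315). Its relative Osr1 (ENSMUSG00000048387, mm10 chromosome 12, 9570116 to 9581500, plus strand) drifted the other way, from 119 ± 7.55 CPM at 3 h to 115 ± 8.31 at 24 h and 107 ± 7.09 at 48 h. The fall from 3 to 48 h passed narrowly, with overlapping libraries (-0.17 ± 0.063, adjusted p = 0.0364). It did not pass in DESeq2 (adjusted p = 0.0533), with no filter on low counts (adjusted p = 0.0944), or without replicate 1, 3, 4 or 5 of the 3 h control or replicate 2, 4 or 5 of the 48 h control, where adjusted p ran from 0.0575 to 0.109. The long noncoding gene 1700022H16Rik overlaps Osr1 on the other strand but reached at most 0.246 CPM in any library.

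Erg (ENSMUSG00000040732, mm10 chromosome 16, 95359169 to 95586593, minus strand), an ETS factor of the interzone and of vessel endothelium, was highest in the middle. Control libraries held 109, 100.5, 107, 107 and 106 CPM at 3 h and 102, 123, 125, 120.2 and 120.4 CPM at 24 h, where replicate 1 alone stayed in the 3 h range. This step did not pass (0.14 ± 0.056, adjusted p = 0.0523), but passed without that replicate (0.19, adjusted p = 0.00435), in 1 fit of all 45 libraries (adjusted p = 0.0375) and with RLE scaling (adjusted p = 0.0486). At 48 h all 5 libraries, at 87.2, 85.3, 97.6, 87.0 and 90.2 CPM, lay below every library of the earlier times, and Erg fell by 0.41 ± 0.067 from 24 h (adjusted p = 0.000519). Of 10 other endothelial markers all 10 fell from 3 to 24 h. From 24 to 48 h 2 of them, Aplnr and Tek, fell and 8 were not called. The list median of that step was 0.11, against -0.01 for all genes. The summed level of the 10 markers was 468 to 478 CPM at 3 h, 256 to 310 at 24 h and 254 to 350 at 48 h. Their part in the level of Erg was not tested.

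Prg4 (ENSMUSG00000006014, mm10 chromosome 1, 150449412 to 150466165, minus strand) was the scarcest gene. It held 3.30, 3.38, 3.03, 4.28 and 2.45 CPM at 3 h and 6.38, 5.89, 5.65, 7.23 and 5.30 CPM at 24 h, with no overlap, a rise of 0.87 ± 0.161 on the log2 scale (adjusted p = 0.000172). At 48 h it stood at 5.23 ± 0.380 CPM, which did not differ from 24 h beyond the spread (-0.23 ± 0.130, adjusted p = 0.276). Prg4 overlaps the far more abundant nuclear pore gene Tpr on the other strand, at 196 ± 16.2, 171 ± 13.8 and 166 ± 17.4 CPM in controls at 3, 24 and 48 h, and, with strand not stated, the level of Prg4 is uncertain.

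Other genes of tendon and joint, chosen with earlier results of these data known, are given beside all genes, of which 49.3% passed from 3 to 48 h (4126 higher and 4178 lower of 16850 tested). Of 19 genes of tendon regulation and collagen matrix 17 rose and 1 fell from 3 to 48 h, with a median log2 change of 0.90. Col14a1, a fibril-associated collagen, rose from 50.0 ± 3.68 to 221 ± 23.8 CPM, Col1a1, a chain of type I collagen, the main tendon collagen, from 1602 ± 86.4 to 6799 ± 624 CPM, and Col1a2, its other chain, by 1.47 ± 0.0659 on the log2 scale. Of 11 other small leucine-rich proteoglycans 10 rose and 0 fell, with a median of 2.47, among them Aspn (asporin) by 2.93 ± 0.077, Bgn (biglycan) by 2.47 ± 0.078 and Ogn (osteoglycin) by 1.91 ± 0.0607. The other 4 thrombospondin genes all rose, and Comp, thrombospondin 5 of cartilage and tendon matrix, rose by 3.62 ± 0.182, Thbs2 by 2.63 ± 0.080 and Thbs3 by 0.78 ± 0.066. Of 16 other joint genes 9 rose and 4 fell, with a median of 0.39. Col22a1, a collagen of tissue junctions, rose from 8.47 ± 0.902 to 56.7 ± 3.81 CPM, and Chrd, the gene of the BMP antagonist chordin, from 24.6 ± 1.21 to 49.4 ± 2.46 CPM. Cd44, a receptor for hyaluronan, rose from 13.0 ± 1.49 to 42.5 ± 4.05 CPM, and Gdf5, a growth factor of the interzone, fell by 0.75 ± 0.1001 between 24 and 48 h. Cartilage and muscle markers rose at the same time, with 8 of 9 and 9 of 10 higher at 48 h than at 3 h and medians of 1.96 and 1.69. Osteoblast markers rose too, with 5 of 5 tested higher and a median of 2.87. The sum of all 6 osteoblast markers, tested or not, was 62.5 ± 5.41 CPM at 3 h and 647 ± 137 CPM at 48 h. Ibsp alone stood at 444 ± 119 CPM at 48 h. The part of these cell types in the rises above was not tested.

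The next comparisons asked what BPS did to these genes. At 10 µM none of the 10 passed at any time. In edgeR 0 of the 10 and 0% of all genes passed at 3, 24 and 48 h, and DESeq2 also called 0 genes. At an unadjusted p below 0.05 the test had 0, 1 and 4 of the 10 genes, and 329, 494 and 438 of all genes. With the replicate number as a block at 24 h, where same-numbered libraries deviated together, still 0 of the 10 and 0 of all genes passed. Unadjusted p was then below 0.05 for 1 of the 10 and for 1311 of all genes. At 48 h the libraries of 10 µM and control did not overlap for Osr1, Osr2 and Prg4, that is for 3 of the 10 genes against 0.445% of the 15276 genes of at least 1 CPM. Osr1 held 97.3, 88.7, 96.4, 91.0 and 87.8 CPM at 10 µM against 117, 99.8, 111, 106 and 101 CPM in control. Prg4 held 6.43, 5.97, 6.14, 6.43 and 6.03 CPM against 5.51, 5.02, 4.67, 5.59 and 5.34 CPM. None of these differences passed the adjusted threshold.

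At 50 µM the number of genes that passed was 0 of 10 at 3 h, 1 at 24 h and 2 at 48 h, all of them lower under BPS. Across all genes 0.0538%, 0.375% and 1.00% passed at these times. At 3 h DESeq2 also called 0 of the 10, and 2 of the 10 (and 1334 of all genes) had an unadjusted p below 0.05. With the replicate number as a block, since same-numbered libraries deviated together here, still 0 of the 10 passed at 3 h while 1.53% of all genes did. The median log2 difference of the 10 genes was -0.01, -0.04 and -0.21 at 3, 24 and 48 h, and that of all genes lay within 0.01 of 0 each time.

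**Figure D4:**
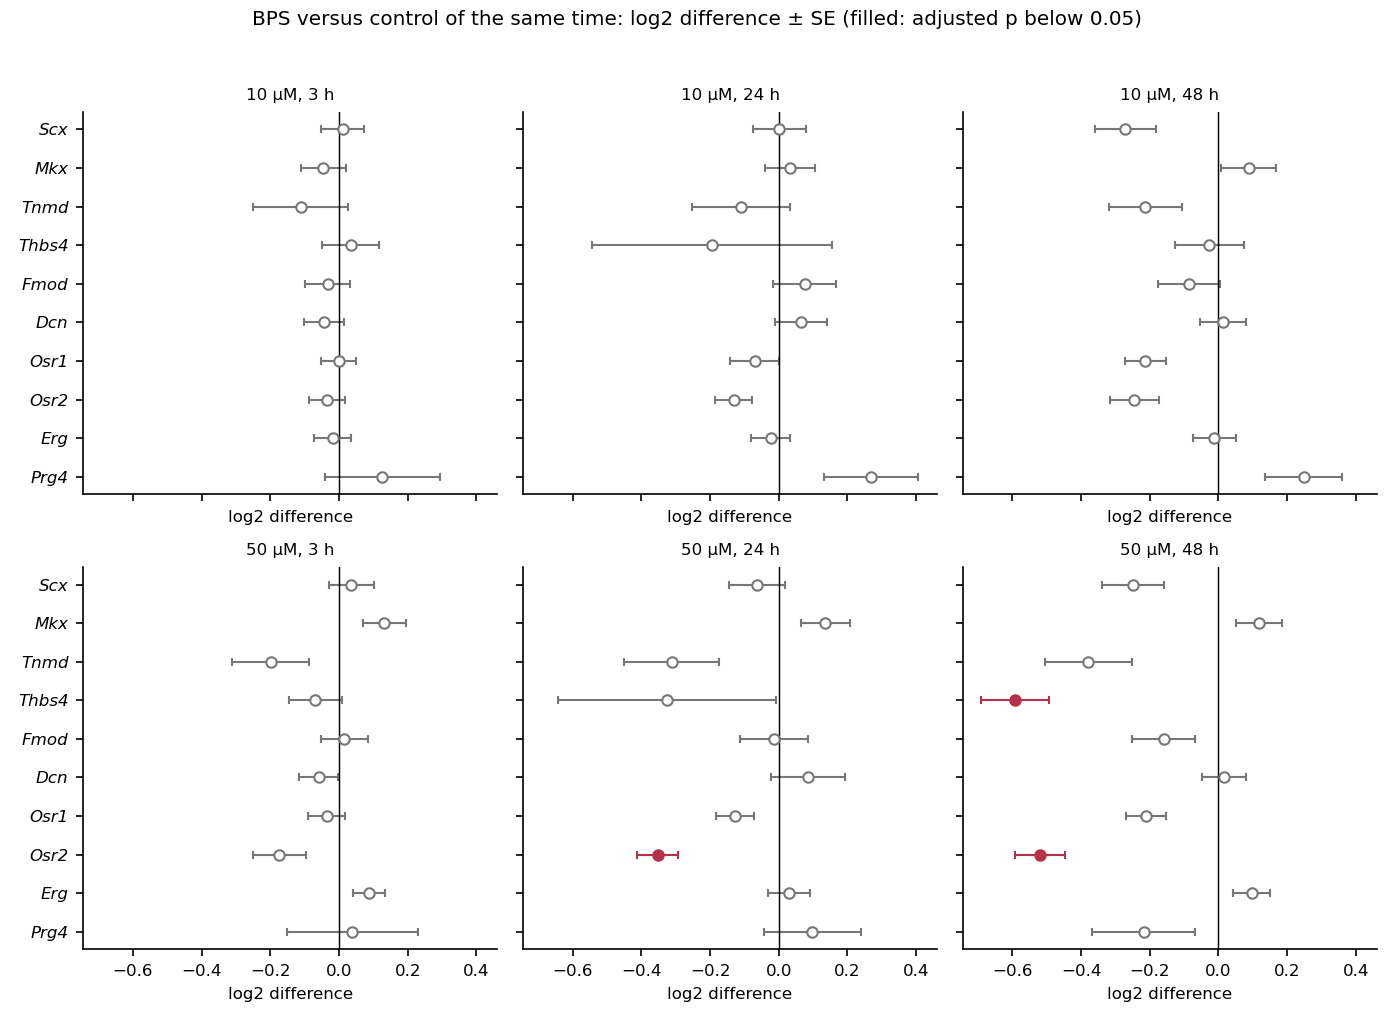
Log2 difference ± SE (x axis) of each gene (y axis) between BPS and control of the same time, for 10 µM (top) and 50 µM (bottom), with filled red points at an adjusted p below 0.05 in edgeR. Osr2 at 24 and 48 h and Thbs4 at 48 h, all at 50 µM, are the filled points.

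Osr2 was the gene of the set that differed most often. At 24 h it held 46.9, 40.0, 47.8, 47.2 and 48.0 CPM at 50 µM and 59.1, 53.7, 52.9, 51.4 and 52.6 CPM at 10 µM, against 62.3, 59.9, 57.4, 57.0 and 58.5 CPM in control. All 50 µM libraries lay below every library of the other groups, and 10 µM overlapped control in replicate 1 alone. Osr2 was lower at 50 µM than in control by a log2 difference of -0.35 ± 0.060 (adjusted p = 0.0177). With the replicate block adjusted p was 0.000293, in a fit that called 5.75% of all genes. Without replicate 1 or 2 of the control or replicate 3 or 4 of 50 µM, adjusted p rose to between 0.0513 and 0.0735, with log2 differences of -0.34 to -0.37.

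At 48 h Osr2 held 42.2, 43.1, 44.6, 47.8 and 46.4 CPM at 50 µM, 57.1, 51.8, 54.0, 51.3 and 55.9 CPM at 10 µM and 74.9, 62.0, 61.2, 63.6 and 58.5 CPM in control. The 3 doses did not overlap in any library, and their levels stood in the order of dose. The difference of 50 µM from control was -0.52 ± 0.072 (adjusted p = 0.00234), which is 0.698 times the control level. It passed in each fit that left out 1 library (adjusted p at most 0.0143). The difference of 10 µM from control, -0.25 ± 0.071, did not pass. At 3 h Osr2 held 37.1, 51.0, 45.1, 45.5 and 36.8 CPM at 50 µM, where replicates 1, 3, 4 and 5 lay below all controls and replicate 2 above them all, and the difference did not pass (-0.17 ± 0.0775, adjusted p = 0.591).

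Over the 9 groups the means of Osr2 ran from control at 48 h (64.1 ± 6.33 CPM) and 24 h (59.0 ± 2.17) through 10 µM at 48 h (54.0 ± 2.51) and 24 h (53.9 ± 3.02) to control and 10 µM at 3 h (48.9 ± 1.85 and 47.8 ± 1.25). The 50 µM groups were the last 3, with 46.0 ± 3.37 CPM at 24 h, 44.8 ± 2.31 at 48 h and 43.1 ± 6.08 at 3 h, which do not differ beyond their SDs. Neighbours in this order lay within the sum of their SDs, except control at 24 h and 10 µM at 48 h, and 10 µM at 24 h and control at 3 h, which were just past it. The change of Osr2 with time at 50 µM was not tested on its own. The difference of the 50 µM response between 48 and 3 h, tested as an interaction, was -0.34 ± 0.092. It did not pass in edgeR (adjusted p = 0.128), where 17 of all genes did. DESeq2 put it just under the threshold (adjusted p = 0.0492), in a fit that called 77 of all genes.

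**Figure D5:**
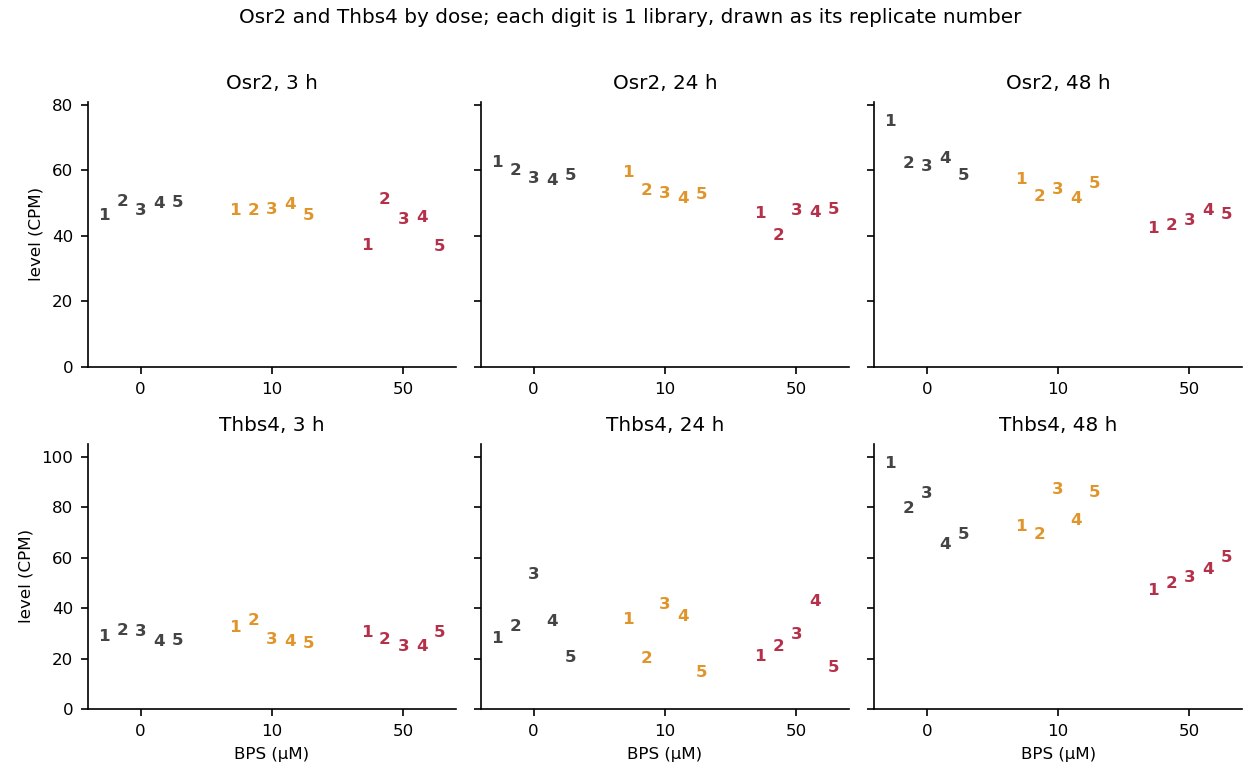
Level in CPM (y axis, from 0) of Osr2 (top) and Thbs4 (bottom) by BPS dose in µM (x axis) at 3, 24 and 48 h, each library drawn as its replicate number. The doses of Osr2 are apart at 48 h, Thbs4 is low at 50 µM at 48 h, and at 24 h replicate 5 is the lowest Thbs4 library of every dose.

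Thbs4 passed at 50 µM at 48 h and not at 3 or 24 h, and the response was not shown to differ between times. At 48 h it held 47.0, 49.8, 51.9, 55.2 and 59.99 CPM at 50 µM against 97.4, 79.4, 85.4, 65.3 and 69.1 CPM in control and 72.4, 69.1, 87.1, 74.6 and 85.8 CPM at 10 µM. All 50 µM libraries lay below every library of the other doses, while 10 µM and control overlapped. The difference of 50 µM from control was -0.59 ± 0.099 (adjusted p = 0.00839), or 0.664 times the control level, and it passed in each fit without 1 library (adjusted p at most 0.0356). In 1 fit of all 45 libraries, which gives every group the same spread, it did not pass (-0.59, adjusted p = 0.128). At 24 h Thbs4 varied widely within each dose. It held 20.7, 24.8, 29.7, 42.5 and 16.6 CPM at 50 µM and 35.3, 19.995, 41.5, 36.7 and 14.5 CPM at 10 µM, and replicate 5 was the lowest of its group at all 3 doses. The difference of 50 µM from control at 24 h was -0.33 ± 0.317 (adjusted p = 0.737). Between 48 and 24 h the 50 µM response of Thbs4 differed by -0.26 ± 0.299 (adjusted p = 1).

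Osr1, Tnmd and Scx also lay low at 50 µM at 48 h without passing in edgeR, and were singled out after their values were seen. Osr1 held 86.3, 90.9, 96.3, 95.8 and 94.2 CPM against 117, 99.8, 111, 106 and 101 CPM in control, with no overlap. With Osr2 and Thbs4 this made 3 of the 10 genes without overlap, against 3.78% of the 15257 genes of at least 1 CPM. The difference of Osr1 was -0.21 ± 0.059 (adjusted p = 0.113 in edgeR). It passed in DESeq2 (adjusted p = 0.0315), which called 426 of all genes where the reported fit called 167. It passed in the fit of all 45 libraries (adjusted p = 0.0423), which called 477. It also passed in the authors' deposited table (adjusted p = 0.0297). That table rests on the same libraries, and the submitters' notes name DESeq2, so it adds no separate support. Its level at 50 µM, 92.7 ± 4.15 CPM, was the same as at 10 µM, 92.3 ± 4.37, within the spread.

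Tnmd held 50.6, 60.1, 47.9, 59.9 and 74.0 CPM at 50 µM at 48 h, which overlapped control at 56.5 to 86.9 CPM. The difference was -0.38 ± 0.127 (adjusted p = 0.209). Replicate 3 of the control, the library with low cartilage and muscle markers, also held the lowest control Tnmd, at 56.5 CPM, so leaving it out widens the difference. Without that library the difference was -0.47 and passed (adjusted p = 0.0406). Scx stood at 98.3 ± 11.1 CPM at 50 µM and 96.4 ± 10.8 at 10 µM against 116 ± 13.7 CPM in control, with overlapping libraries (50 µM versus control -0.25 ± 0.0895, adjusted p = 0.24). Bop1, which overlaps Scx, stood at 56.5 ± 1.68 CPM at 50 µM.

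The remaining genes overlapped control at 50 µM and 48 h and did not pass. Dcn stood at 156 ± 13.5 CPM against 154 ± 7.47, Fmod at 174 ± 20.8 against 194 ± 23.3 and Mkx at 69.8 ± 3.57 against 64.0 ± 6.10 CPM. Erg stood at 95.9 ± 3.27 against 89.4 ± 4.89 CPM and Prg4 at 4.50 ± 0.907 against 5.23 ± 0.380 CPM. Their log2 differences ran from -0.22 for Prg4 to 0.12 for Mkx, with standard errors from 0.0545 for Erg to 0.149 for Prg4. These errors leave room for differences of such sizes, so the lack of a call does not show equal levels.

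The 2 BPS doses were also compared directly. At 3 and 24 h 0 of the 10 genes passed, and 0% of all genes. At an unadjusted p below 0.05 there was 1 of the 10 at each time, and 737 and 923 of all genes, and DESeq2 called 7 and 37 genes. At 48 h 2 of the 10 passed, against 0.921% of all genes. These were Osr2 at -0.27 ± 0.056 (adjusted p = 0.0168) and Thbs4 at -0.56 ± 0.077 (adjusted p = 0.00202), both lower at 50 µM. The call of Osr2 was lost without replicate 1 of 10 µM (adjusted p = 0.0627) or replicate 1 or 2 of 50 µM (0.0566 and 0.0538), and that of Thbs4 in the fit of all 45 libraries (adjusted p = 0.281). At 24 h Osr2 differed by -0.23 ± 0.062 (adjusted p = 0.427) with no overlap. With the replicate block, since same-numbered libraries deviated together here too, it passed (adjusted p = 0.0291), as did 1.09% of all genes. Prg4 at 48 h was lower at 50 µM than at 10 µM with no overlap, but did not pass (-0.47 ± 0.141, adjusted p = 0.14). How many of all genes do not overlap was counted only for 10 and 50 µM against control at 48 h. How common such separation is between the 2 BPS doses is therefore not known. The 50 µM groups enter both kinds of comparison, so these values do not add to those against control.

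Whether the 50 µM response changed with time was tested for all 10 genes in 3 interactions. In edgeR 0 of the 10 passed in each, where 0%, 0.0922% and 0% of all genes did for 24 versus 3 h, 48 versus 3 h and 48 versus 24 h. At an unadjusted p below 0.05 there were 0, 3 and 0 of the 10 genes, and 1212, 1538 and 640 of the 18432 genes tested. For 48 versus 3 h DESeq2 called 1 of the 10, Osr2, and 77 of all genes.

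Other genes of the same tissues were mostly not called under BPS. At 50 µM and 48 h 1 of the 19 other tendon genes was lower and 0 higher, with a list median of -0.12 against -0.00 for all genes. It was Tnc, the gene of tenascin C, a matrix glycoprotein of tendon and of the junction of muscle and tendon, at 210.1 ± 14.4 CPM against 288 ± 36.5 in control (-0.46 ± 0.078, adjusted p = 0.00895) and 272 ± 19.2 CPM at 10 µM (-0.38 ± 0.055, adjusted p = 0.00202). Of the 11 other small leucine-rich proteoglycans and the 4 other thrombospondins 0 passed at 50 µM at any time, with medians of -0.04 and -0.07 at 48 h. Among 16 other joint genes Gdf5 was higher at 50 µM at 3 h, at 123 ± 8.24 against 99.0 ± 7.14 CPM (0.32 ± 0.056, adjusted p = 0.025). Chrd was lower at 48 h, at 36.6 ± 2.98 against 49.4 ± 2.46 CPM (-0.44 ± 0.069, adjusted p = 0.00539). Against 10 µM at 48 h, Wnt4, a Wnt ligand of the joint, was higher at 50 µM (0.26 ± 0.056, adjusted p = 0.0206) and Cd44 lower (-0.29 ± 0.067, adjusted p = 0.0378).

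Markers of other cell types were read beside the lower levels of Osr2 and Thbs4 at 50 µM. At 48 h, of 9 cartilage, 10 muscle and 7 limb mesenchyme markers 0 passed, with medians of 0.04, 0.02 and 0.01 on the log2 scale. Of 7 macrophage markers 3 were lower (Csf1r, C1qa and Lyz2), with a median of -0.49, and their summed level was 114 to 180 CPM at 50 µM against 168 to 233 CPM in control. Of 10 endothelial markers 2 were lower (Aplnr and Cdh5), with a median of -0.27 and sums of 223 to 279 against 254 to 350 CPM. All of these macrophage and endothelial markers passed the filter on low counts. At 24 h, where Osr2 was also lower, 1 of the 7 macrophage markers was lower (C1qb, -0.52 ± 0.1105), with a median of -0.37 and sums of 82.9 to 104 CPM at 50 µM against 102 to 142 CPM in control. Of 10 endothelial and 6 epidermal markers 0 passed at 24 h, with medians of -0.15 and -0.37 and sums of 236 to 255 against 256 to 310 CPM and of 142 to 297 against 153 to 367 CPM. The part of these markers in the levels of Osr2 and Thbs4 was not tested.

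The authors' deposited tables hold their own comparisons. At an adjusted p below 0.05 these had 5, 5 and 9 of the 10 genes for control culture (24 versus 3 h, 48 versus 24 h, 48 versus 3 h), with Osr1 the gene that did not pass at 48 versus 3 h. For BPS against control the authors' deposited tables had 0 at 10 µM at each time and 0, 1 and 3 of the 10 genes at 50 µM for 3, 24 and 48 h. The 3 were Osr2 (adjusted p = 2.6e-08), Thbs4 (1.23e-05) and Osr1 in the authors' deposited table. How many of all genes passed in the authors' deposited tables was not counted, so these counts of the 10 genes have no background beside them.

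As a description over the 9 group means, which share the strong change with time, the genes most like each member among 13606 genes were listed by Pearson r of log2 CPM. Tnmd was most like Anxa5 (r = 0.999), Cav3 and Kazald1, Fmod most like Ltbp2 (0.999), Pdgfrl and Ctsb, and Dcn most like Loxl4 (0.999), Zbtb7c and Kera. Scx was most like Ntng1, Hs6st2 and Mfap4, and Thbs4 most like Osmr, C1s1 and Csf1. Mkx was most like Vamp7, Scyl2 and Nek9, Erg most like Six2, Srpk2 and Kansl2, and Prg4 most like Phlpp2, Slc25a24 and Pik3c2b. Osr1 and Osr2 had the lowest best values of the 10, 0.974 for Osr1 with Bag6 (then Ube2r2 and Gpn1) and 0.966 for Osr2 with Dynll1 (then Deaf1 and Actr1a). Within the set r was highest between Tnmd and Fmod, at 0.987, and lowest between Mkx and Tnmd, at -0.915, while Osr1 and Osr2 had r of -0.0153.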

How the data were processed

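The deposited tables hold read counts per gene, made by the authors from poly(A) RNA. Tools named without settings in the submitters' processing notes are HTSeq 0.6.1, STAR 2.5, CASAVA 1.8 and DESeq2 (version 2), with the mouse build mm10. Whether counting used strand is not given in the sources used here. Per the file headers, the authors' tables also give log2 fold changes with p-values and adjusted p-values, and gene lengths and positions. These were used only where the authors' deposited table is named.

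The 9 deposited tables of 10 libraries each were joined by gene ID into counts of 34994 genes in 45 libraries. The joined tables repeat 1319925 counts, of which 0 differed. CPM used TMM factors over all 45 libraries. Each comparison of 5 against 5 libraries was fitted on all genes that pass filterByExpr, with the robust quasi-likelihood test of edgeR 4.0.16 (R 4.3.3, TMM) and Benjamini-Hochberg adjustment over all genes tested, called below 0.05. Interactions between dose and time came from 1 fit of the 45 libraries. The fit was tested on simulated counts for 50 µM against control at 48 h (16663 genes), where it recovered 69% of 1.5-fold and 87% of 2-fold changes. Alternatives were DESeq2 1.42.0, RLE scaling, no filter on low counts, 1 fit of all 45 libraries, a replicate block and leaving out each library.

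The labels number replicates 1 to 5 in each group. Same-numbered libraries deviated together, with every pair's correlation above 0.1, for 50 µM against control at 3 h (0.16 to 0.42) and 24 h (0.12 to 0.42), 10 µM against control at 24 h (0.15 to 0.43) and 50 against 10 µM at 24 h (0.19 to 0.43). The pairing comes from this check, since the labels do not say what a number marks.

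The genes and lists were chosen with earlier results of these data known. All 10 genes were named with their levels. Log2 changes were given for genes called in a comparison, or called at another time, dose or with the block, and the genes named from a list are among its 3 called genes of smallest adjusted p in that comparison. Osr1, Tnmd, Scx and Prg4 under BPS, and the log2 differences of the other genes not called, were added after their values were seen. For likeness, 3 genes of at least 1 CPM were taken by Pearson r of log2(CPM + 1) over 9 group means. Promoter sequences came from RefSeq on GRCm38.p6.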

Additional observations from a re-analysis of the deposited data

Results flagged for a closer look

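In 7 of 90 groups of 5 libraries (10 genes in 9 groups) the highest or lowest library stood far from the other 4 by Dixon's test, and chance flags about 1 in 20 groups. Replicate 2 of 50 µM at 24 h held 40.0 CPM of Osr2, below the others of its group. Replicate 1 of the 24 h control held 102 CPM of Erg, and replicate 2 of the 3 h control held 100.5 CPM of Erg, both lowest in their groups. Replicate 4 held the highest Fmod of its group in the 24 h control, at 143 CPM, and at 10 µM and 3 h, at 63.3 CPM. Replicate 3 of 10 µM at 3 h held the lowest Osr1, at 111 CPM, and replicate 1 of 50 µM at 3 h the highest Prg4, at 4.95 CPM.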

How the results depend on the processing

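RLE scaling and no filter on low counts left the number of the 10 genes called within 1.5 times of that reported in all 15 comparisons. With a replicate block 1 gene, Osr2, was called for 50 µM against control at 48 h, where Thbs4 had an adjusted p of 0.0514 and the numbers do not pair the libraries, and 1 for 50 against 10 µM at 24 h. The block moved the calls of all genes from 9 to 256 at 3 h, from 62 to 949 at 24 h and from 167 to 70 at 48 h for 50 µM against control, and from 152 to 328 for 50 against 10 µM at 48 h. Of the 10 genes Osr1 at 48 versus 3 h was the other call to change with it (adjusted p = 0.0572). In 1 fit of all 45 libraries 1 gene was called for 50 against 10 µM at 48 h, and DESeq2 called 1 for the interaction of 48 versus 3 h. Leaving out 1 library gave 0 to 1 called genes for 50 µM against control at 24 h and 1 to 2 for 50 against 10 µM at 48 h. The fits without 1 library covered all 10 genes in every comparison. The ranges of their log2 changes were summarised for all 10 genes over control time, but for Osr2 and Thbs4 alone under BPS. Among these, the changes that turned sign were of Thbs4 and Dcn and were not called. Those of Thbs4 ran from -0.00759 to 0.352 (24 versus 3 h), -0.0366 to 0.0776, -0.352 to 0.0291 and -0.0899 to 0.0570 (10 µM against control at 3, 24 and 48 h) and -0.359 to 0.0189 (50 against 10 µM at 24 h). That of Dcn ran from -0.0308 to 0.0809 (24 versus 3 h). The cause was not tested.

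Counts of all genes called for 50 µM against control were 59, 266 and 426 in DESeq2, 60, 3.92 times the reported 62, and 258 with no filter, and 16, 104 and 477 in the fit of 45 libraries at 3, 24 and 48 h. Without 1 library they ran from 1 to 18, 2 to 315 and 55 to 282. For 50 against 10 µM at 48 h they were 352, 469 and 136, and 88 to 203 without 1 library. With no filter 13 and 41 genes were called for 50 against 10 µM at 3 and 24 h, and 1 and 10 in the fit of 45 libraries. The interaction of 48 versus 3 h had 77 calls in DESeq2 against 17, and 28 with the block. The step from 24 to 48 h in controls had 4063 in the fit of 45 libraries against 2670. Prg4, at 2.45 to 7.23 CPM in controls, was the gene most limited by depth.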
